A study of Mus musculus with 10 samples.

Results

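The 38 genes described here encode the folding and degradation machinery of the endoplasmic reticulum, the compartment in which secreted and membrane proteins are made. They were taken by gene symbol from a fixed list of chaperones, lectins, oxidoreductases, degradation factors, stress sensors and translocation subunits, and all 38 were found among the 20295 gene models of the count table. The RNA came from interscapular brown fat, a tissue between the shoulder blades that burns fuel to make heat, and was poly-A selected and sequenced from 10 male mice of the strain C57BL/6JBomTac. They were 8 weeks old, single-housed and fed chow, with 1 library per mouse. The column headers of the counts mark all 10 libraries as WT (wild type), and no mutation or transgene is named in the labels. Controls were 5 mice that stayed at 22 °C, and 5 others spent 3 days at 4 °C (cold). Both groups had been housed at 22 °C beforehand, and 22 °C is itself below the temperature at which a mouse needs no extra heat production.

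Proteins enter the reticulum through the Sec61 channel and fold there with the help of the chaperone BiP (Hspa5), its co-chaperones, the sugar-binding chaperones calnexin and calreticulin, and enzymes that form disulfide bonds. Proteins that fail to fold are unfolded, passed back to the cytosol and destroyed, a route built around the ubiquitin ligase Syvn1 (HRD1) and its partner Sel1l. When unfolded proteins build up, the sensors IRE1 (Ern1), PERK and ATF6 switch on the genes of this machinery, in part through the transcription factor XBP1. In brown fat, Sel1l is known from mouse knockout work to be needed for normal mitochondria and heat production.

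Library totals were 4446163 to 5776905 counts in control and 5676963 to 6923932 counts in cold libraries, and the 38 genes took 0.316% to 0.388% of each library. Of the 38, 37 had enough reads to be tested, and Derl3 did not. Levels are in CPM, counts scaled to a common library total after TMM normalisation, and a mean is followed by its SD over 5 libraries. Fold changes are those of cold over control on the log2 scale with their standard error (SE), and adjusted p-values are from edgeR's quasi-likelihood test with Benjamini-Hochberg adjustment over the 11229 tested genes, and a gene is called below 0.05. Control replicate 2 and cold replicate 5 stood apart from their groups on the second principal component of all genes, at -36.5 against 2.3 to 23.7 in the other controls and at -23.5 against -0.9 to 6.0 in the other cold libraries. The first component, with 40.0% of the variance, separated the groups. There cold replicate 5 was the cold library nearest to control, at 6.7 against 24.2 to 31.7 in the other cold libraries. Controls were at -30.6 to -18.1. Counts of members are also given without control replicate 2 and cold replicate 5, a choice that removes the cold library nearest to control. The brown adipocyte markers had a summed level of 25107 to 28968 CPM in control libraries and of 35518 to 40703 CPM in the cold. Ucp1, the uncoupling protein that makes the heat, carried most of that difference, at 9123 CPM in control and 18532 CPM in the cold. Of the 9 markers 3 were higher, 1 was lower (Adipoq, at 0.607 times the control level) and 5 were not called. In whole tissue, fewer cells of a type and less RNA per cell cannot be told apart.

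The genes were chosen by symbol and not by promoter sequence, and some of their promoters held a known element. The list is of machinery genes, many of which the stress sensors are known to switch on, so a high share with such elements could be foreseen. The shares below describe the promoters and are no independent test. The ER stress response element (ERSE), which ATF6 together with the factor NF-Y is known to bind, was searched for as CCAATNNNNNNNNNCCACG on both strands of the RefSeq promoters of build GRCm38.p6, from 250 bases before to 50 bases after each start. Of the 38 genes, 31 had a promoter in that table, including Ero1l and Ero1lb under their current symbols Ero1a and Ero1b. Exact matches were present in 10 of these 31 genes, or 32.3%, against 37 of all 27025 genes in the table, or 0.137%. By promoter these were 39 of 32851, or 0.119%. The matches are shown to let the sites be compared across genes that behaved differently in the cold. The fixed letters are in capitals and the spacer is in lower case, written 5′ to 3′ in the direction of the motif.
Hspa5: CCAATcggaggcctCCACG
Hsp90b1 (upstream copy): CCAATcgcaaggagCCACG
Hsp90b1 (downstream copy): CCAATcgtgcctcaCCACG
Dnajc3: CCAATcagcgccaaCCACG
Calr: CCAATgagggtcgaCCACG
Canx: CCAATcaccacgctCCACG
Pdia6: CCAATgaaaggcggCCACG
Creld2: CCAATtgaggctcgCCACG
Ero1lb: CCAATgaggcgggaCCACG
Syvn1: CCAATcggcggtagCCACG
Derl3: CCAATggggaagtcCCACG

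The promoters that hold these matches lie at chr2:34771840-34772139 (Hspa5), chr10:86705395-86705694 (Hsp90b1), chr14:118937682-118937981 (Dnajc3), chr8:84846882-84847181 (Calr), chr11:50325624-50325923 (Canx), chr12:17266339-17266638 (Pdia6), chr15:88819396-88819695 (Creld2), chr13:12565633-12565932 (Ero1lb), chr19:6046326-6046625 (Syvn1) and chr10:75893148-75893447 (Derl3). Hsp90b1, Calr and Canx are on the minus strand and the others on the plus strand. The motif ran in the direction of the gene in Hspa5, Dnajc3, Canx, Pdia6, Syvn1 and the upstream copy of Hsp90b1, and against it in the others. It began nearest to the start in Syvn1, 44 bases upstream, and in Hspa5, 65 bases upstream, and farthest from it in Ero1lb and in the upstream copy of Hsp90b1, 201 and 212 bases upstream. The related element ERSE-II, searched on both strands as ATTGG, any 1 base and CCACG, occurred in 12 of all promoters, or 0.037%, and in 2 of the 31 genes, both times in the direction of the gene. It began 52 bases upstream of the start in Herpud1 (chr8:94386179-94386478, plus strand) and 7 bases after it in Dnajb11 (chr16:22857595-22857894, plus strand).
Dnajb11: ATTGGcCCACG
Herpud1: ATTGGgCCACG

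The XBP1-associated element UPRE, searched on both strands as TGACG followed directly by TGG, occurred in 1 of the 31 genes, at an alternative start of Txndc5, and in 0.676% of all promoters; none of the 3 motifs overlapped another in these genes. The upstream 250 bases are printed for 3 genes that hold 1 exact ERSE match each and had different results in the cold. Inexact copies were not searched for, so a gene may hold further copies. The 3 are Calr, which rose (chr8:84846932-84847181, minus strand), Hspa5, which did not pass the test (chr2:34771840-34772089, plus strand), and Syvn1, which fell (chr19:6046326-6046575, plus strand). Capitals mark the fixed letters of the element, which in Calr reads on the opposite strand.
Calr: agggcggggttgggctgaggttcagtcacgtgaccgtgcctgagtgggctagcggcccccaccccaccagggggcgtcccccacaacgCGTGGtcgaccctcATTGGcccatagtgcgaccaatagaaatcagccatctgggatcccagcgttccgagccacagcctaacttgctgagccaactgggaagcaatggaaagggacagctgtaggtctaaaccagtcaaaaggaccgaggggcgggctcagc
Hspa5: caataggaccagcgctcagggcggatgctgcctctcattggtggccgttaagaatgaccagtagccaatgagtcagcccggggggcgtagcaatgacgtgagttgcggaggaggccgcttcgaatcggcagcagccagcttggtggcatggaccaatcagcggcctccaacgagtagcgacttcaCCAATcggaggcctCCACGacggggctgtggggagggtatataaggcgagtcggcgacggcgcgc
Syvn1: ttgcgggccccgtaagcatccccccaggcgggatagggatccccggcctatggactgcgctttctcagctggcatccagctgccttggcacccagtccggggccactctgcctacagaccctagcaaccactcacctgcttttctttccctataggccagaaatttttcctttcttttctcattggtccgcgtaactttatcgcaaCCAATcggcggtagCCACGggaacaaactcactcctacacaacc

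Genes with an exact match had different values in the cold, and the part of the element in these values was not tested. Of the 9 tested members with an exact ERSE match, 2 rose (Calr and Canx), 1 fell (Syvn1) and the other 6 did not pass. Over all tested genes 10.2% rose and 9.14% fell. These 9 had a median log2 fold change of 0.04 and a range from -0.48 to 0.58. A match describes the sequence and does not show that a factor was bound. Among genes that are not members, 6 with an exact ERSE match in this window were tested, and 1 of these, the adenylate cyclase gene Adcy3, was called, at 1.54 (SE 0.21, adjusted p = 0.000303). Alg12, a mannosyltransferase that builds the sugar precursor for glycoproteins, was another of the 6, at 0.07 (SE 0.18).

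**Figure D1:**
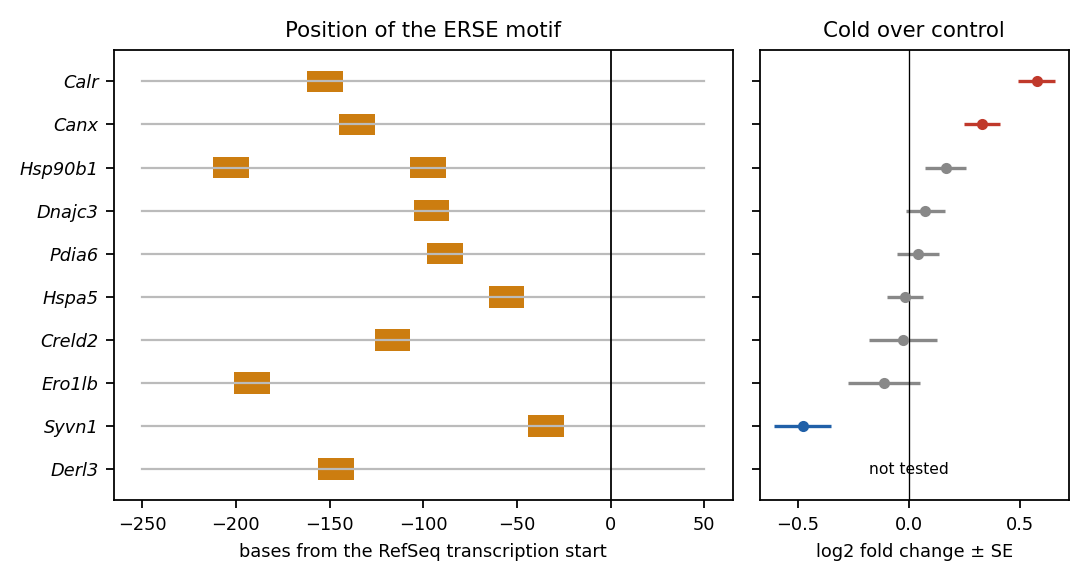
Left, position of the 19-base ERSE motif (orange bars) in the promoters of 10 members, in bases from the RefSeq start; right, their log2 fold change of cold over control ± 1 SE, red where higher, blue where lower and grey where not past the threshold. The genes are in order of fold change from Calr at 0.58 to Syvn1 at -0.48; Derl3 was not tested.

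After 3 days of cold, 6 of the 37 tested members rose and 3 fell. Calr, Canx, Txndc5, Ero1l, Sdf2l1 and Atf6 were higher, and Xbp1, Syvn1 and Sel1l were lower. The other 28, among them Hspa5, Hsp90b1, Pdia4, Pdia6, Dnajc3 and Herpud1, did not pass the test. The 9 called genes are 24.3% of those tested, close to the 19.3% called over all genes, and the median change of the 37 was 0.04 against -0.02 over all 11229 genes. By direction, 6 of 37 members were higher, where 10.2% of all genes were, and 3 of 37 were lower, where 9.14% were. For 7 members, 18.9%, no library of one group fell within the range of the other, against 14% of all genes. Cold was wholly above control for 5 of them and wholly below for 2, where 7.39% and 6.57% of all genes did so. Without control replicate 2 and cold replicate 5, 9 members rose and 4 fell, or 35.1%, and the share called over all genes was also higher in that fit, at 25.3%.

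**Figure D2:**
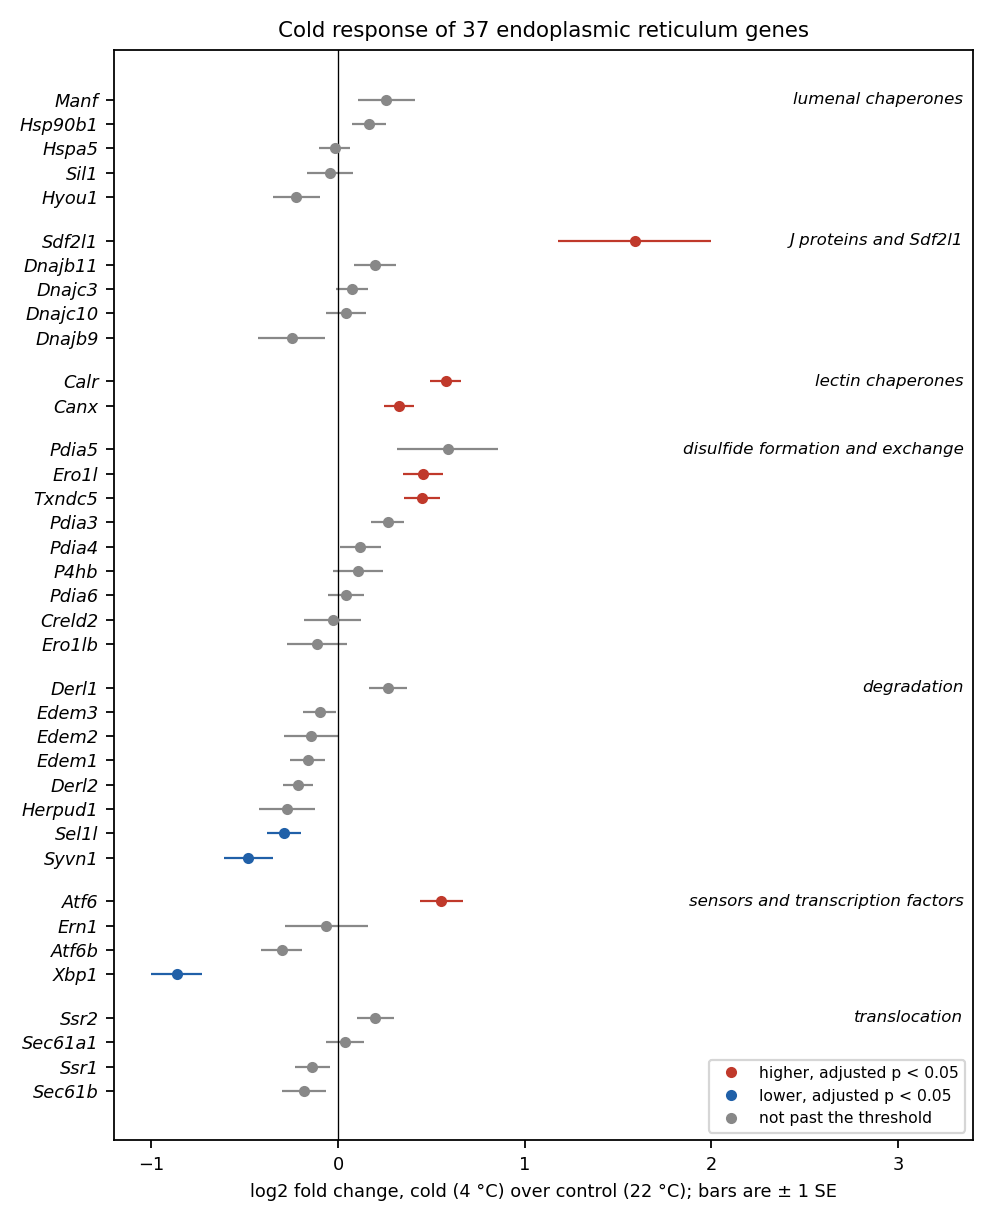
Log2 fold change of cold over control (horizontal axis) for the 37 tested members, grouped by role, with bars of ± 1 SE over 5 libraries a group; red and blue mark genes past the adjusted p threshold of 0.05. Both lectin chaperones lie to the right of 0 and 7 of 8 degradation genes to the left.

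The sugar-binding chaperones, which hold newly made glycoproteins until they are folded, were both higher in the cold. They are only 2 genes, and over all genes 10.2% were higher. Calr, calreticulin (mm9 chr8:87365987-87370830, minus strand), was at 229, 221, 244, 217 and 241 CPM in control replicates 1 to 5. In cold replicates 1 to 5 it was at 342, 319, 384, 371 and 302 CPM. All cold libraries lay above all controls, and the rise was 1.49-fold (log2 0.58, SE 0.08, adjusted p = 0.000449). Canx, the membrane-bound calnexin (mm9 chr11:50107459-50139175, minus strand), was at 192, 244, 239.9, 218 and 245 CPM in control and at 289.6, 267, 294, 292 and 289 CPM in cold libraries. The groups did not overlap, with cold replicate 2 the lowest of the cold libraries, and the rise was 1.26-fold (log2 0.33, SE 0.08, adjusted p = 0.0131). Calr and Canx each kept their call in all 20 alternative fits. Per length, the mean of Calr was below that of Hspa5 in control, at 119 against 188 CPM per kb of counted sequence. In the cold the means were 177 against 186, and the libraries of both genes overlapped.

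**Figure D3:**
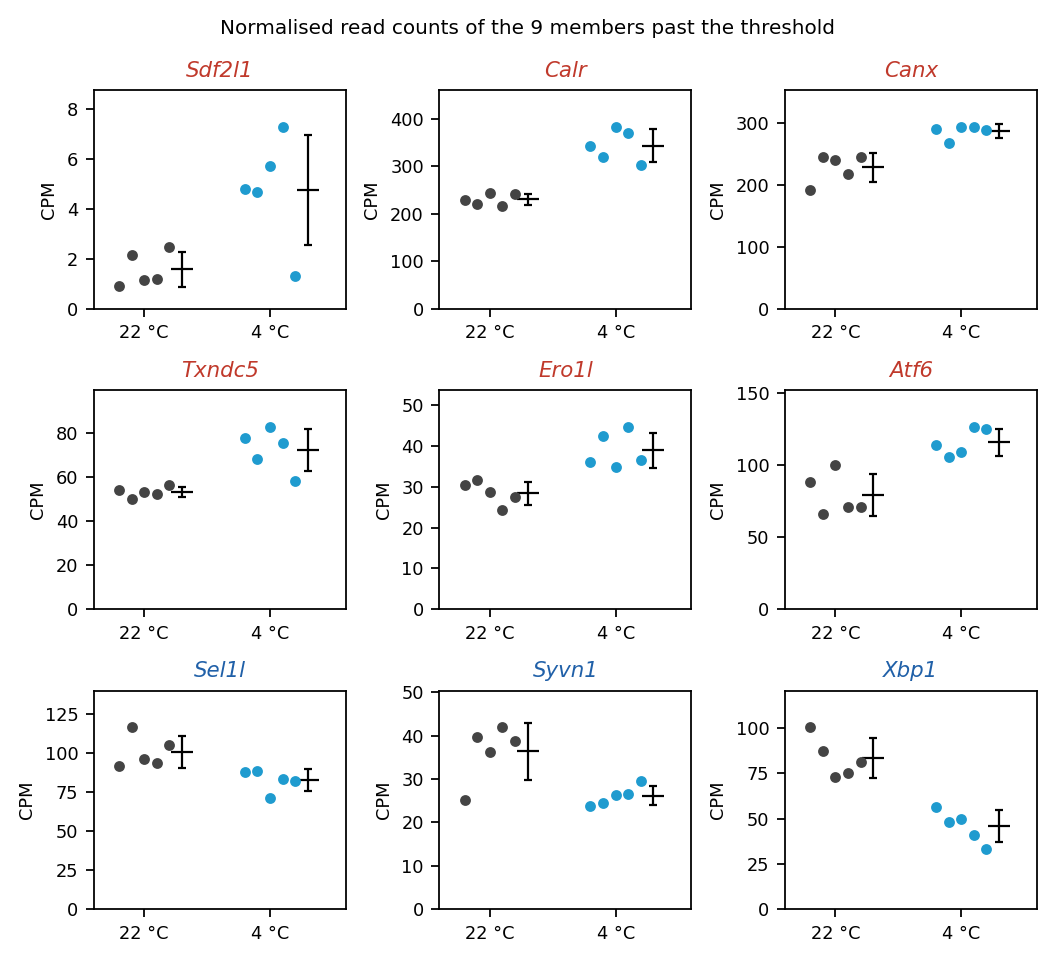
Normalised read counts (CPM, axes from 0) of the 9 called members in each of 5 control (22 °C, dark) and 5 cold (4 °C, blue) libraries, replicates 1 to 5 from left to right, with mean and SD as black bars. The titles are red for rises and blue for falls; Sdf2l1 and Syvn1 are the called genes whose groups overlap.

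The general chaperones of the lumen did not pass the test, in either direction, in any of the 5 cases. Over all genes 19.3% were called, so a count of 0 among 5 genes does not set them apart. Hspa5, the HSP70 chaperone BiP (mm9 chr2:34627610-34632049, plus strand), was the member with the highest level per length. It was at 493, 555, 429, 429 and 476 CPM in control and at 456, 482, 469, 468 and 476 CPM in cold libraries. All cold values lay within the control range, and the log2 fold change was -0.02 (SE 0.08, adjusted p = 0.896). Hsp90b1, the HSP90 of the reticulum known as GRP94, was at 0.17 (SE 0.09) and reached an adjusted p of 0.017 only without control replicate 2 and cold replicate 5. Manf, a secreted stress protein that binds BiP, was at 0.26 (SE 0.15). The nucleotide exchange factors of BiP, Hyou1 and Sil1, were at -0.22 (SE 0.13) and -0.04 (SE 0.12). The value of Hyou1 was -0.39 (adjusted p = 0.0115) without those same libraries.

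Among the J proteins, which recruit BiP to its clients, and their partner Sdf2l1, 1 of 5 genes was called. That is 20%, near the 19.3% called over all genes. Sdf2l1, a stromal cell-derived factor that works with J proteins of the lumen (mm9 chr16:17130231-17132476, minus strand), had the largest fold change of all members and low counts, from 4 to 46 reads per library. It was at 0.905, 2.16, 1.15, 1.18 and 2.48 CPM in control and at 4.81, 4.66, 5.70, 7.29 and 1.31 CPM in cold libraries. Cold replicates 1 to 4 lay above all controls and cold replicate 5 lay among them, with a mean rise of 3.01-fold (log2 1.59, SE 0.41, adjusted p = 0.0165). The adjusted p was 0.0547 with limma-voom. Cold replicate 5 was also the lowest library for the summed fibroblast markers, at 269 CPM against 692 to 924 CPM in the other cold libraries and 409.9 to 625 CPM in control. It was likewise lowest for the macrophage markers, at 86.6 CPM against 162 to 374 CPM in the other cold libraries and 119 to 251 CPM in control. Of the 37 tested members, 19 had their lowest cold value in that library, among them the called genes Sdf2l1, Calr, Txndc5 and Xbp1. Another 7 had their highest there, among them Syvn1. The same shares over all genes were not counted. Cold replicate 5 stood apart over all genes, so these counts are not read as a trait of the members. The part of fibroblasts and macrophages in the members' values was not tested. Of the 7 fibroblast markers 0 were called, and of the 7 matched macrophage markers 1 was higher and 1 lower.

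Dnajb9 (ERdj4), a J protein that is also a classic XBP1 target, was at 58.6, 129, 71.7, 77.0 and 72.0 CPM in control and at 63.4, 64.3, 62.4, 81.2 and 73.1 CPM in cold libraries. Control replicate 2 stood far above the rest, and the log2 fold change was -0.25 (SE 0.18, adjusted p = 0.353). Dnajb11 (ERdj3) was at 0.20 (SE 0.11), Dnajc3 (p58IPK) at 0.07 (SE 0.09) and Dnajc10 (ERdj5, a disulfide reductase) at 0.04 (SE 0.11).

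Of the 9 genes for disulfide bond formation and exchange, 2 rose and 0 fell, or 22.2%, near the 19.3% called over all genes. Txndc5 (ERp46), a disulfide isomerase with thioredoxin domains (mm9 chr13:38592140-38620693, minus strand), was at 53.8, 49.8, 53.1, 52.2 and 56.1 CPM in control. In the cold it was at 77.6, 68.0, 82.7, 75.2 and 58.2 CPM. The groups did not overlap, although cold replicate 5 lay just above the highest control, and the rise was 1.37-fold (log2 0.45, SE 0.10, adjusted p = 0.00637). Ero1l, the oxidase that recharges the disulfide isomerases (mm9 chr14:45902762-45938247, minus strand), was at 30.3, 31.6, 28.7, 24.3 and 27.4 CPM in control and at 36.1, 42.4, 34.9, 44.7 and 36.7 CPM in cold libraries. All cold libraries were above all controls, and this rise was 1.37-fold as well (log2 0.45, SE 0.11, adjusted p = 0.00988).

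The disulfide isomerases P4hb (PDI, 0.11, SE 0.13), Pdia6 (0.04, SE 0.10) and Pdia4 (0.12, SE 0.11) did not pass the test. Pdia3 (ERp57), the isomerase that works with calnexin and calreticulin, came closest, from 113 ± 10.3 to 135 ± 12.5 CPM (0.27, SE 0.09, adjusted p = 0.0521). It was past the threshold with DESeq2 (adjusted p = 0.0302) and without cold replicate 5 (adjusted p = 0.0255) or control replicate 2 (adjusted p = 0.0221). Pdia5 was at 0.59 (SE 0.27, adjusted p = 0.145) from low counts, Creld2, a stress-induced protein with isomerase activity, at -0.03 (SE 0.15), and Ero1lb, the second oxidase, at -0.11 (SE 0.16).

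Of the 8 degradation genes tested, 2 fell, 0 rose and 7 had a value below 0. Over all genes 9.14% fell and 52.3% had a value below 0. Syvn1, the ubiquitin ligase HRD1 (mm9 chr19:6046576-6053718, plus strand), was at 25.1, 39.6, 36.3, 41.9 and 38.8 CPM in control and at 23.9, 24.5, 26.2, 26.5 and 29.6 CPM in cold libraries. Control replicate 1 lay among the cold libraries, and the other 4 controls lay above all of them (log2 -0.48, SE 0.13, adjusted p = 0.0213). Syvn1 did not pass without control replicate 4, cold replicate 1 or cold replicate 2, the highest adjusted p of these being 0.0577. Syvn1 overlaps the mitochondrial ribosomal protein gene Mrpl49 by 89 bases on the opposite strand, whose mean was 64.5 CPM over the control and 45.9 CPM over the cold libraries. No strand setting is stated for the counts.

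Sel1l, the partner that holds Syvn1 in place and receives its substrates (mm9 chr12:93044483-93087597, minus strand), was at 91.8, 117, 96.0, 93.8 and 105 CPM in control. In the cold it was at 87.6, 88.7, 71.0, 83.2 and 81.9 CPM. Every cold library lay below every control, by a small margin at the nearest pair (log2 -0.29, SE 0.09, adjusted p = 0.0424). Sel1l did not pass in 9 of the 10 fits that left out a library, where the adjusted p reached 0.106, and the authors' deposited table gives Sel1l an adjusted p of 0.0791. The count of members that fell was 1 without control replicate 4, cold replicate 1 or cold replicate 2.

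The mannosidase-like proteins that mark glycoproteins for destruction were at -0.16 (Edem1, SE 0.09), -0.14 (Edem2, SE 0.14) and -0.10 (Edem3, SE 0.09). Herpud1, a stress-induced scaffold of the ligase complex, was at 99.1, 139, 91.2, 113 and 108 CPM in control and at 70.6, 86.8, 80.1, 94.7 and 124 CPM in cold libraries. Cold replicate 5 was the highest of its group, and the value of -0.27 (SE 0.15, adjusted p = 0.218) became -0.41 (adjusted p = 0.0366) without it and -0.31 (adjusted p = 0.041) without control replicate 2 as well. Of the derlins, which form the channel out of the reticulum, Derl1 was at 0.27 (SE 0.10, adjusted p = 0.0852) and Derl2 at -0.21 (SE 0.08, adjusted p = 0.082). By mean level per length, Derl1 was second to Hspa5 in control, at 124 CPM per kb. In the cold its mean of 149 was below those of Hspa5 and Calr, though the cold libraries of Derl1 and Calr overlapped. Derl3 had 0 to 3 reads in each library and is not interpreted.

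The stress sensors and their transcription factors held the largest fall among the members and 1 of the rises. These are 4 genes, 50% of them called, against 19.3% over all genes. Xbp1, the factor made active when IRE1 splices its RNA (mm9 chr11:5420644-5425996, plus strand), was at 100.4, 87.5, 72.8, 75.1 and 81.3 CPM in control. In the cold it was at 56.3, 48.2, 49.7, 41.1 and 33.5 CPM. All cold libraries lay below all controls, at 0.549 times the control level (log2 -0.86, SE 0.13, adjusted p = 0.000882), and was past the threshold in each of the 20 alternative fits. A count per gene does not tell the spliced from the unspliced form, so this is a fall in total Xbp1 RNA. Ern1, the sensor kinase and nuclease IRE1 that splices it (mm9 chr11:106258934-106349110, minus strand), was at 10.2, 6.86, 7.12, 5.05 and 4.75 CPM in control and at 5.15, 7.30, 6.27, 5.71 and 7.86 CPM in cold libraries. The groups overlapped (log2 -0.06, SE 0.22, adjusted p = 0.867).

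Atf6, a sensor that is cut in the Golgi to release a transcription factor (mm9 chr1:172634588-172797902, minus strand), was at 88.0, 66.1, 99.7, 70.6 and 70.6 CPM in control. In the cold it was at 114, 105, 109, 126 and 125 CPM. Every cold library was above every control, by 1.47-fold on average (log2 0.55, SE 0.12, adjusted p = 0.00537). Its paralogue Atf6b (mm9 chr17:34784091-34792019, plus strand) was at 24.7, 23.5, 21.4, 24.9 and 22.1 CPM in control and at 21.1, 16.0, 21.4, 17.6 and 18.5 CPM in cold libraries. The groups overlapped narrowly, since cold replicates 1 and 3 were level with control replicate 3, the lowest control (log2 -0.30, SE 0.11, adjusted p = 0.0717).

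Genes of translocation, which carry new chains into the reticulum, did not pass the test in any of 4 cases. With 19.3% called over all genes, a count of 0 among 4 does not set them apart. The channel subunits Sec61a1 and Sec61b were at 0.04 (SE 0.10) and -0.18 (SE 0.12), and Ssr1 and Ssr2 of the translocon-associated complex at -0.14 (SE 0.10) and 0.20 (SE 0.10). Ssr2 reached an adjusted p of 0.0334 without cold replicate 5.

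**Figure D4:**
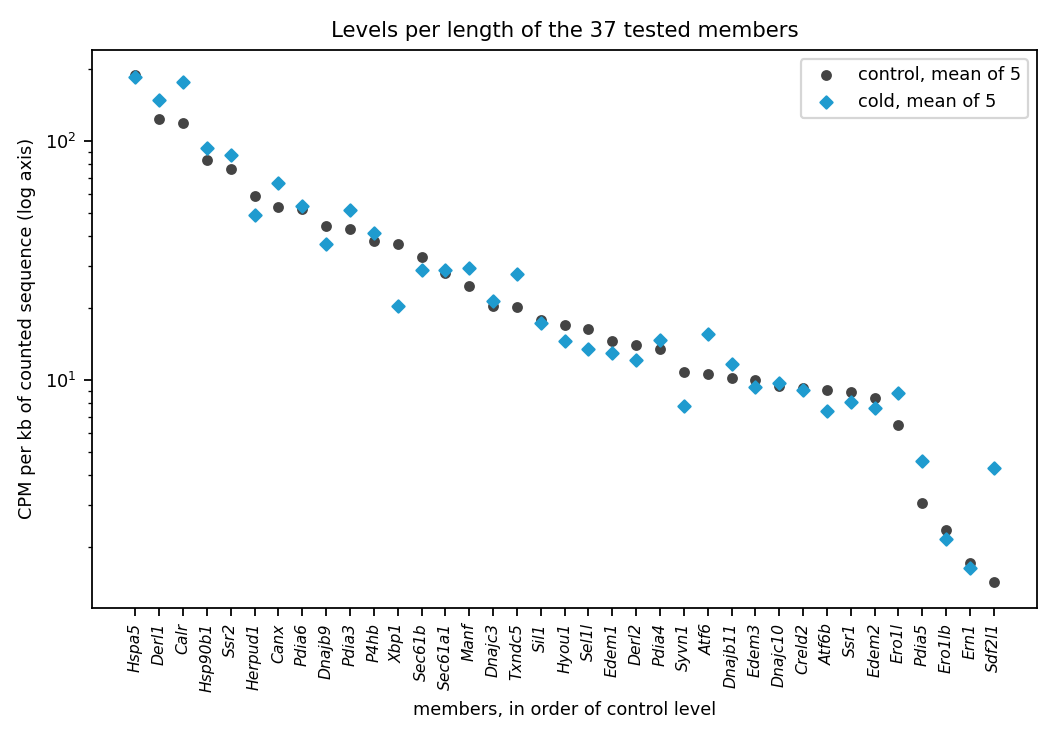
Mean level per length (CPM per kb of counted sequence, log axis) of the 37 tested members in control (dark circles) and cold (blue diamonds) libraries, n = 5 each, in order of the control level. Control levels ran from 188 for Hspa5 to 1.42 for Sdf2l1.

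Per length, the control levels spanned from 188 CPM per kb for Hspa5 to 1.42 for Sdf2l1. Hspa5 ranked above 96.6% and Sdf2l1 above 10.7% of all tested genes on this scale. After Hspa5 came Derl1 (124), Calr (119), Hsp90b1 (83.3), Ssr2 (76.4) and Herpud1 (58.8). Derl1 and Calr do not differ beyond the spread of their libraries on this scale. The lowest after Sdf2l1 were Ern1 (1.71), Ero1lb (2.34) and Pdia5 (3.04), so the sensor Ern1 stood well below its substrate Xbp1 (37.1).

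Ratios within a library do not depend on the scaling, and were compared for 20 pairs of members chosen as paralogues or direct partners, with the members' values known. An exact two-sided permutation test over 252 arrangements of the group labels was used, whose smallest p is 0.00794, with Benjamini-Hochberg adjustment over the 20 pairs. Since the pairs were chosen with values known and several share a gene, these p-values are no independent test. The ratio passed the threshold for 4 pairs, all at the smallest possible p. Atf6 over Atf6b went from a log2 ratio of 1.75 ± 0.30 to 2.62 ± 0.22, a difference of 0.87, and Ero1l over Ero1lb from 1.53 ± 0.24 to 2.10 ± 0.23, a difference of 0.56. Derl1 over Derl2 went from 2.88 ± 0.22 to 3.37 ± 0.15, a difference of 0.49. Calr over Pdia3 went from 1.04 ± 0.18 to 1.34 ± 0.03, a difference of 0.31. In each of the 4 the groups did not overlap (SD, n = 5 per group; exact permutation p = 0.00794, adjusted 0.0397). As a description, the ratio within a library was higher in the cold mice than in the control mice for these 4 pairs.

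The remaining 16 pairs had adjusted p-values of 0.0595 or more in that exact permutation test. Xbp1 over Ern1 differed by -0.84 and Ssr1 over Ssr2 by -0.33, and P4hb over Txndc5 by -0.34 and Calr over Canx by 0.24, each with an exact permutation p of 0.0238 before and 0.0595 after adjustment. Sel1l over Syvn1, the core of the ligase complex, differed by 0.17, with ratios of 1.16 to 1.87 in control and 1.44 to 1.88 in cold libraries. Hspa5 over its exchange factors Sil1 and Hyou1 differed by 0.04 and 0.21. The pairs among Edem1, Edem2 and Edem3 differed by -0.06 to -0.02.

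**Figure D5:**
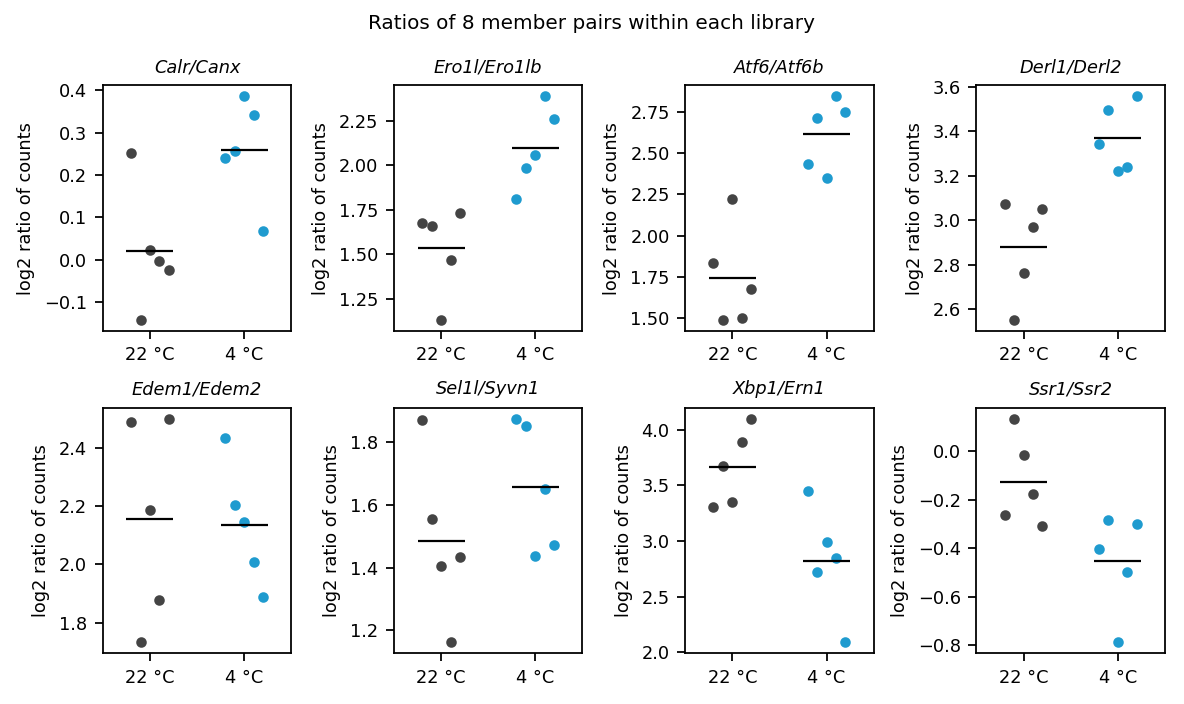
Log2 ratio of the counts of 8 pairs of members in each library, control (22 °C, dark) and cold (4 °C, blue), with group means as black lines. For Ero1l/Ero1lb, Atf6/Atf6b and Derl1/Derl2 all cold libraries lie above all controls; for the other 5 pairs the groups overlap.

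Other genes of the same machinery were read from 5 lists of 98 genes, 96 of which were matched and 93 tested. Of these, 15 rose and 9 fell, 25.8% of those tested against 19.3% of all genes. The lists were chosen with earlier results of these data known, so the difference is no independent result. The glycoprotein list had the most rises, 6 of 18 with 1 fall, or 38.9% called, and a median of 0.20. Mlec, malectin, a lectin that binds freshly glucosylated proteins, went from 339 ± 42.6 to 466 ± 49.3 CPM (0.46, SE 0.10, adjusted p = 0.00681). Prkcsh, the regulatory subunit of glucosidase II, which trims glycans for calnexin and calreticulin, went from 53.2 ± 7.38 to 71.5 ± 3.70 CPM (0.43, SE 0.10, adjusted p = 0.00977). Magt1, a subunit of the oligosaccharyltransferase, rose by 0.35 (SE 0.08). Uggt1, the folding sensor that returns glycoproteins to calnexin and calreticulin, and Rpn1, another transferase subunit, rose by 0.36 and 0.39. Lman1, a cargo receptor for glycoproteins leaving the reticulum, rose by 0.30, and its partner Mcfd2 was the gene that fell, by 0.28. These last 4 were chosen after their values were seen.

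In the translocation list 1 of 19 rose and 2 fell, or 15.8%, against 19.3% called over all genes. Sec62, a translocon subunit, rose by 0.37 (SE 0.08), while Ssr4, the delta subunit of the complex that holds Ssr1 and Ssr2, fell by 0.35 (SE 0.09) and Sec61a2, the second channel isoform, by 0.40 (SE 0.12, adjusted p = 0.0381). Sec61a2 did not pass in 7 of the 10 fits that left out a library. Of 23 further oxidoreductases, prolyl isomerases and J proteins, 2 rose and 2 fell, or 17.4%, near the share over all genes. Tmx4, a membrane thioredoxin, rose by 0.63 (SE 0.12), and the prolyl isomerases Fkbp7 and Fkbp14 fell by 0.52 (SE 0.10) and 0.62 (SE 0.17).

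Among 23 further degradation genes 3 rose and 3 fell, or 26.1%, against 19.3% called over all genes. Ubxn8, which tethers the p97 ATPase to the membrane, rose by 0.54 (SE 0.11) and Ngly1, the cytosolic enzyme that removes glycans from extracted proteins, by 0.28 (SE 0.07). Vcp, the p97 ATPase itself, fell by 0.33 (SE 0.09, adjusted p = 0.0213), which did not hold in 4 of the 10 fits that left out a library. Of 10 further sensor genes 3 rose and 1 fell, or 40% of a short list, against 19.3% called over all genes. Eif2ak3, the sensor PERK, rose by 0.41 (SE 0.12, adjusted p = 0.0291), which did not hold in 5 of those 10 fits, the highest adjusted p being 0.0766. Tmem33 and Tmbim6, membrane proteins that act on the sensors, rose by 0.37 (SE 0.08) and 0.29 (SE 0.07). The count of related genes that fell was 3 without cold replicate 3 or cold replicate 4 and 5 without control replicate 4 or cold replicate 2.

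Markers of other cell types were read beside these results. The summed endothelial markers ranged from 660.2 to 868 CPM in control libraries and from 816 to 977 CPM in the cold, with 2 of 7 higher. The summed B and plasma cell markers, from cells rich in this machinery, were at 1.86 to 5.74 and 0.935 to 6.06 CPM, with 0 of 7 matched genes above the filter. The summed T cell markers were at 1.35 to 4.54 and 1.12 to 2.75 CPM. The summed skeletal muscle markers were at 340.4 and 240.1 CPM in cold replicates 2 and 3 and at 5.51 to 83.2 CPM in the other libraries. Atf6 had its lowest cold value in cold replicate 2. The part of any of these cells in the members' values was not tested.

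The authors' deposited table lists 37 of the members, 6 higher and 2 lower at its adjusted p under 0.05, where 19.8% of its 11241 genes pass. Its calls and those above differed for Sel1l alone among the tested members. It gives Xbp1 a log2 fold change of -0.868 and Calr one of 0.573 in the authors' deposited values.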

How the data were processed

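RNA was poly-A selected and made into libraries with the TruSeq RNA Sample Prep kit v2, per the labels' protocols. The authors deposited unnormalised read counts for RefSeq gene models in 10 libraries, per the file headers. The submitters' processing notes name STAR, edgeR and the build mm9; their versions, the counting program and its strand setting were not given in the sources used here. A second deposited table holds the authors' log2 fold change, log2 CPM, p-value and adjusted p-value for each gene, per the file headers.

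Control columns carry no group word and were matched to the samples by replicate number; the groups come from the sample titles. Coordinates are of mm9, with starts raised by 1. Promoters are from RefSeq, build GRCm38.p6, and the builds were never mixed. Of the members, 3 overlap another gene model on the opposite strand (Pdia6, Syvn1 and Derl2).

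Cold was compared with control, with no covariate, by the quasi-likelihood test of edgeR (version 4.0.16, under R 4.3.3) after filterByExpr and TMM scaling. A gene that did not pass this test may still have changed. The SE is the log2 fold change divided by the square root of F. Log2 CPM used a prior count of 2. CPM per kb divides by the deposited counted length. Alternatives were other scalings and filters, DESeq2 1.42.0, limma-voom (limma 3.58.1), a replicate block and fits without libraries. Replicates of a group differed beyond sampling noise (chi-square per degree of freedom 3.2 to 36.1), and the labels name separate mice. The members, the lists and the pairs were chosen with earlier results of these data known, and leaving libraries out of the pair ratios was added after seeing the data. By rule, library values are given for called members and the 4 sensor genes, and up to 3 called genes with the smallest p per list are named; Dnajb9, Herpud1 and Hspa5 are shown in full besides. Sequences missing for 7 members were not used here.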

Additional observations from a re-analysis of the deposited data

Results flagged for a closer look

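In 74 groups of 5 libraries (37 members, control and cold), 4 held a library that lay farther from the rest than Dixon's limit allows; chance alone flags about 1 group in 20. Dnajb9 was at 129 CPM in control replicate 2 against 58.6 to 77.0 CPM in the other controls. Hsp90b1 was at 224 CPM in cold replicate 5 against 261 to 269.8 CPM in the other cold libraries. Canx was at 267 CPM in cold replicate 2 against 288.6 to 294 CPM in the others. Edem3 was at 77.0 CPM in control replicate 3 against 61.3 to 65.4 CPM in the others.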

How the results depend on the processing

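Over the 20 alternatives, the members that rose numbered 5 to 9 and those that fell 1 to 4. Leaving out 1 library gave 6 to 8 rises and 1 to 3 falls among members, 11 to 17 and 3 to 13 among related genes, and 823 to 1310 and 732 to 1157 among all genes. Calr, Canx, Txndc5, Ero1l, Xbp1 and Atf6 kept direction and call in all 20; Sdf2l1 lost its call with limma-voom and with the replicate block (adjusted p = 0.0531). With the replicate block 5 members rose and 2 fell, 13 and 6 related genes, and Sel1l lost its call. Deviations of same-numbered libraries correlated from -0.25 to 0.19, and the best partner was the same-numbered library in 2 of 5 cases. With so few libraries this cannot show whether the numbers pair the mice.

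Several values near 0 that did not pass the test changed sign. Without 1 library each, the range was -0.057 to 0.039 for Hspa5, -0.14 to 0.021 for Sil1, -0.022 to 0.089 for Dnajc10, -0.021 to 0.090 for Pdia6, -0.14 to 0.044 for Creld2, -0.17 to 0.12 for Ern1 and -0.013 to 0.11 for Sec61a1. With no scaling factor Hspa5 was at 0.016 and Creld2 at 0.0065. Without control replicate 2 and cold replicate 5, Hspa5 was at 0.034, Creld2 at 0.024, Sil1 at -0.15, Pdia6 at 0.13 and Sec61a1 at 0.15. Among ratios without 1 library, the range was -0.13 to 0.064 for Edem1/Edem2, -0.13 to 0.0071 for Edem1/Edem3, -0.14 to 0.032 for Edem2/Edem3, -0.094 to 0.10 for P4hb/Pdia4 and -0.029 to 0.12 for Hspa5/Sil1. Without both libraries Edem2/Edem3 was at 0.039, P4hb/Pdia4 at 0.020 and Canx/Pdia3 at -0.0018. The causes were not tested. Depth limits Sdf2l1, Ern1, Pdia5 and Derl3.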
